A study of Mus musculus with 8 samples.

Results

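RNA levels of NIH3T3 cells, an immortalised line of mouse embryonic fibroblasts, were compared between a pair of library sets that hold the same shRNA groups. Set 2 holds replicates 3 and 4 of both groups and set 1 holds replicates 1 and 2, so that 4 libraries stand against 4, out of 8 libraries in all. In each set, 2 libraries were made from cells with a scrambled short hairpin RNA and 2 from cells with one against RPRD1B, a partner of the C-terminal domain (CTD) of RNA polymerase II. Short hairpin RNA is written shRNA below. All cells carried an shRNA vector and had been under puromycin selection for at least 1 week, per the labels, and the knockdown was checked by Western blot. RNA was purified on columns, cDNA was primed with random hexamers, and the low-input library kit is not described as stranded. Growth, extraction and library protocols read the same for both sets. No label states how the sets differ or if replicates were grown separately. Culture, RNA preparation and library batch therefore cannot be told apart here, and p-values reflect library-to-library spread, which may be technical.

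Several of the gene groups described here have well-known behaviour in fibroblasts. p53 is a transcription factor that is held low by the ubiquitin ligase Mdm2 and that, when stabilised, raises Mdm2 itself, the cell cycle inhibitor Cdkn1a and many others. Immediate early genes such as Fos and Egr1 are transcribed within minutes of serum, growth factors or stress and their messengers are short-lived. FOXO transcription factors act when growth factor signalling through AKT is low. Replication-dependent histone genes are transcribed in S phase, and their messengers lack a poly(A) tail and end in a conserved stem-loop. Priming with random hexamers can copy RNA without a poly(A) tail.

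The set difference was present in most of the transcriptome. Among 11723 genes whose mean count reached 10, 3874 were higher in set 2 and 3855 were lower at an adjusted p under 0.05 in edgeR's quasi-likelihood test with the shRNA group as a term, which is 33.0% and 32.9% of the genes tested. With a fold of at least 2 also required, 839 genes (7.16%) were higher and 494 (4.21%) lower. The knockdown term of the same fit called 888 genes (7.57%). The median absolute log2 fold change was 0.31 for the set and 0.08 for the shRNA, and the set shift of the 5th to the 95th percentile of genes ran from -0.93 to 1.20. All 4 libraries of set 2 lay above all 4 of set 1 for 3294 genes (28.1%) and below them for 3269 (27.9%). These are bulk libraries, in which fewer cells of a type or cell cycle phase and less RNA per cell cannot be told apart.

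Similar numbers of genes were called in cells with and without the knockdown. In the scrambled libraries apart, 3349 genes (28.6%) were higher and 3317 (28.3%) lower in set 2, and in the knockdown libraries apart 3359 (28.7%) were higher and 3310 (28.2%) lower. Of the 7729 genes called over all libraries, 7720 had the same sign in both groups. Of the 1333 that also passed 2-fold, 1229 were called in the same direction in each group apart. Across genes the scrambled and the knockdown shifts, which share no library, correlated at r = 0.90; genes are not independent replicates, and this is a description.

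**Figure D1:**
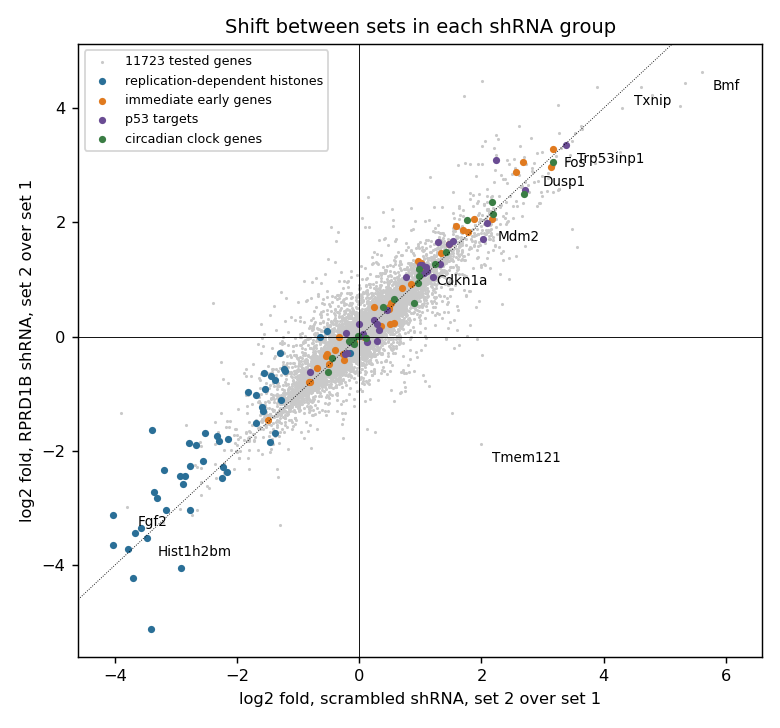
Log2 fold of set 2 over set 1 in scrambled (horizontal) and RPRD1B shRNA libraries (vertical) for 11723 tested genes, 2 against 2 libraries on each axis, with a dotted line of equality. Coloured points mark 4 gene lists; histone genes lie at the lower left, and Bmf, Txnip, Trp53inp1, Fos and Dusp1 at the upper right.

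Depth ranged from 12311442 to 23223139 counts per library, where 3 counts are 0.129 to 0.244 CPM of the library totals, and it did not separate the sets. Libraries divided by set along the leading principal component (76.7% of the variance) and by shRNA along the next one (6.91%). Pairs of libraries from different sets differed by a median of 0.32 to 0.35 (absolute log2 fold over genes), against 0.10 for replicates and 0.11 to 0.13 for the shRNA groups of a set. Rprd1b was at 42.3, 44.4, 26.4 and 28.02 CPM in set 1 and 39.5, 40.8, 22.5 and 22.7 CPM in set 2, where each set of values lists the scrambled libraries and then the knockdown libraries. Both sets had less Rprd1b with the knockdown. Between the sets its log2 fold was -0.18 ± 0.07 (SE, edgeR's quasi-likelihood test with Benjamini-Hochberg adjustment; adjusted p = 0.0122), and without RPRD1B replicate 2 it no longer passed the threshold. Every ± given with a log2 fold of set 2 over set 1 is an approximate SE from the fit to 4 against 4 libraries. It is the absolute log2 fold divided by the square root of the F statistic of that test. The ± of a difference of shifts is obtained alike from the model with 1 mean per set and group. Of 14 fibroblast markers, 12 were tested, 3 rose and 4 fell (2 and 7 with an offset for GC content and length). Without the offset these were 25% and 33.3%, against 33.0% and 32.9% of all genes. Twist1 (-1.06 ± 0.08) and Prrx1 (-0.82 ± 0.03) were among those that fell, both without overlap of the sets, and P4hb rose (0.34 ± 0.03). The summed level of the markers was 10479 to 10927 CPM in set 1 and 10434 to 10656 CPM in set 2, which does not show changes of single markers. Markers of some other cell types were near 0 in both sets. Epithelium markers summed to 0.146 to 0.731 CPM in set 1 and 0.242 to 0.823 CPM in set 2, and 6 of 11 had no count in any library, among them Epcam and Krt8. Lymphocyte markers summed to 0.146 to 0.281 CPM in set 1 and 0.131 to 0.615 CPM in set 2 with 5 of 10 at 0, Cd3e and Ms4a1 included, and skeletal muscle markers to 1.40 to 2.50 CPM in set 1 and 0.768 to 1.05 CPM in set 2 with 5 of 11 at 0, Myod1 and Myog included. Endothelial markers summed to 1.10 to 1.71 CPM in set 1 and 1.00 to 2.34 CPM in set 2 with Tie1 at 0. Macrophage markers summed to 8.34 to 10.99 CPM in set 1 and 10.1 to 12.3 CPM in set 2 with Emr1 and Tyrobp at 0, and adipocyte markers to 16.9 to 22.8 CPM in set 1 and 21.7 to 24.2 CPM in set 2 with Lep, Cebpa and Plin1 at 0. Neural markers summed to 40.4 to 56.8 CPM in set 1 and 53.04 to 74.3 CPM in set 2, with Nefl, Olig2 and Sox2 at 0; the part of these markers in the results was not tested. Of the few that were tested, 1 of 2 adipocyte, 0 of 1 endothelial, 1 of 3 macrophage, 3 of 4 neural and 0 of 1 muscle markers rose, and 1 adipocyte, 1 macrophage and 1 muscle marker fell; without scrambled replicate 4 only 1 neural marker rose.

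**Figure D2:**
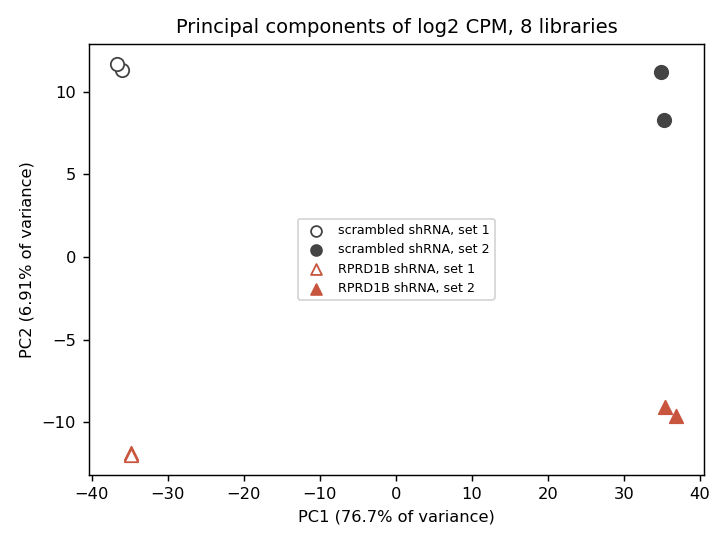
Principal components of log2 CPM in 8 libraries; each point is a library, open in set 1 and filled in set 2, circles for scrambled and triangles for RPRD1B shRNA. The horizontal axis, with 76.7% of the variance, separates the sets, and the vertical axis, with 6.91%, separates the shRNA groups.

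p53 target genes were mostly higher in set 2. Mdm2, the ubiquitin ligase that degrades p53, was at 236, 225, 266 and 258 CPM in set 1 and 946, 1016, 1089 and 987 CPM in set 2. Every library of set 2 was above every library of set 1, with a log2 fold of 2.04 ± 0.03 (adjusted p = 5.7e-51). Trp53inp1, a p53-induced protein of stress-induced death and autophagy, was at 4.98, 6.36, 5.41 and 5.59 CPM in set 1 and 58.6, 60.4, 57.8 and 55.8 CPM in set 2, again without overlap, for a log2 fold of 3.38 ± 0.08 (adjusted p = 1.85e-45). The cyclin-dependent kinase inhibitor Cdkn1a was at 402, 441, 419.6 and 449 CPM in set 1 and 892, 903, 1002 and 1027 CPM in set 2, without overlap, and its log2 fold was 1.16 ± 0.03 (adjusted p = 5.4e-39). Of 35 listed p53 targets 20 of 32 tested genes rose and 6 fell, 62.5% and 18.8% against 33.0% and 32.9% of all genes tested, with a median log2 fold of 0.68 against -0.01 over all genes tested (0.56 to 0.70 under 3 other scalings and an offset for GC content and length, called the offset below; with it 3522 of all genes were higher and 4341 lower). A rise of 2-fold or more was called for 15 of them, against 7.16% of all genes, and a fall of that size for none.

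The p53 targets did not move as one. Bbc3, which encodes the pro-apoptotic protein PUMA, rose by a log2 fold of 2.68 ± 0.30, with 0.395 to 0.586 CPM in set 1 and 2.46 to 4.31 CPM in set 2. The DNA damage-inducible Gadd45a rose by 2.63 ± 0.12, with 3.23 to 5.72 CPM in set 1 and 22.1 to 27.2 CPM in set 2, and neither gene overlapped between sets. The sestrin Sesn1 (1.60), the antiproliferative Btg2 (1.55), the death receptor Fas (1.47) and the repair gene Xpc (1.12) also rose, all in log2 fold. The apoptosis effector Bax had a log2 fold of 0.01 ± 0.06 and the damage-binding gene Ddb2 0.10 ± 0.12, and neither was called. Trp53, which encodes p53, fell by 0.11 on the log2 scale, and the targets Phlda3 (-0.27) and Aen (-0.72) fell as well. Trp53 is itself a member of the list of p53 targets. It counts among the 32 tested genes, the 6 that fell and the windows with a half-site given below. Of the 32 tested targets, 25 had a promoter window in RefSeq (GRCm38.p6, from 250 bases before to 50 after the start), and 12 of these windows, 48.0%, held a p53 half-site on either strand, against 8.09% of the tested genes with a window. Among the 12 targets with a half-site 6 rose and the median log2 fold was 0.19, and among the 13 without one 10 rose and the median was 1.09. These are matches of letters and not bound sites.

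Immediate early genes were mostly higher too. Fos, a subunit of the AP-1 transcription factor, was at 2.49, 3.14, 2.18 and 2.63 CPM in set 1 and 26.1, 24.5, 23.2 and 24.1 CPM in set 2. The sets did not overlap, and the log2 fold was 3.23 ± 0.12 (adjusted p = 7.47e-35), with 3.17 in the scrambled and 3.29 in the knockdown libraries. Dusp1, a phosphatase that switches off MAP kinases and is itself an immediate early gene, was at 25.6, 26.6, 25.01 and 28.4 CPM in set 1 and 185, 184, 213 and 203 CPM in set 2. Its log2 fold was 2.89 ± 0.05 (adjusted p = 1.75e-54), and every library of set 2 was above set 1. The promoter windows of both genes are shown because both genes rose and both windows hold the letters of a cyclic AMP response element (CRE) or of its core TGACG. In the RefSeq windows of GRCm38.p6, Fos (chr12:85473640-85473939, plus strand) and Dusp1 (chr17:26508423-26508722, minus strand), capitals mark TGACG on either strand and, in Fos, TATAAA. The full CRE, TGACGTCA, is in Dusp1, where matches of TGACG on the 2 strands overlap.
Fos: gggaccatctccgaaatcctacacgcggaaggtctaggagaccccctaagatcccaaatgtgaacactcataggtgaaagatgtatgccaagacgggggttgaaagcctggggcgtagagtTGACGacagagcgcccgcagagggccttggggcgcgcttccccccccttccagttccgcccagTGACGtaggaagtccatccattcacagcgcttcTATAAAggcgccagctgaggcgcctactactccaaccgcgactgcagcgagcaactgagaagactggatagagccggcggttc
Dusp1: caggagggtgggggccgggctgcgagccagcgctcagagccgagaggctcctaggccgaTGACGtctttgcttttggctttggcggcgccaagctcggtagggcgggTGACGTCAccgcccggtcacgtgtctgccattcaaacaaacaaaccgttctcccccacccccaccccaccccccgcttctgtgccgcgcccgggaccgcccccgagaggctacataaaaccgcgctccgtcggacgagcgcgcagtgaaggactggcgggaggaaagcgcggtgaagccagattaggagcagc
TGACG was present in the windows of 18 of 27 immediate early genes that had one (66.7%), against 36.8% of tested genes, and the full CRE in 2 (7.41%) against 3.68%. AP-1 sites (TGACTCA, or TGAGTCA on the other strand) were in 3.70% of these windows and 4.26% of tested genes, and the CArG box, the site of serum response factor, in 3 windows (11.1%) against 1.61%. Dusp1 is not in that list but in the list of MAP kinase feedback genes. There TGACG was in 7 of 16 windows (43.8%) and the full CRE in 3 (18.8%).

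Of 37 listed immediate early genes, 23 of 36 tested genes rose and 9 fell, 63.9% and 25% against 33.0% and 32.9% of all genes. A rise of 2-fold or more was called for 14 of them, against 7.16% of all genes. The median log2 fold was 0.49 (0.32 to 0.52 under other scalings and the offset). The stress transcription factor Atf3 (3.04 ± 0.15), the zinc finger factor Egr1 (2.87 ± 0.11), the AP-1 subunit Fosb (2.73 ± 0.08), the small Maf protein Mafk (2.11 ± 0.05), the mRNA decay factor Zfp36 (1.97 ± 0.05) and Junb (1.77 ± 0.07) rose on the log2 scale. Not all members moved that way. Fosl2, another AP-1 subunit, was at 565 to 647 CPM in set 1 and 202 to 225 CPM in set 2 and fell, with a log2 fold of -1.48 ± 0.03 (adjusted p = 3.21e-47). Nr4a2 (-0.81), the serum response factor gene Srf (-0.80) and Myc (-0.62) also fell. Among 20 MAP kinase feedback genes 8 rose and 10 fell, 40% and 50% (5 and 10 with the offset). Dusp1, Dusp14 (1.60) and Dusp8 (1.00) rose, whereas Dusp6, which acts on ERK (-0.87), Dusp4 (-1.21), the Sprouty gene Spry2 (-1.57) and Spred2 (-1.10), which restrain Ras and ERK signalling, fell.

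**Figure D3:**
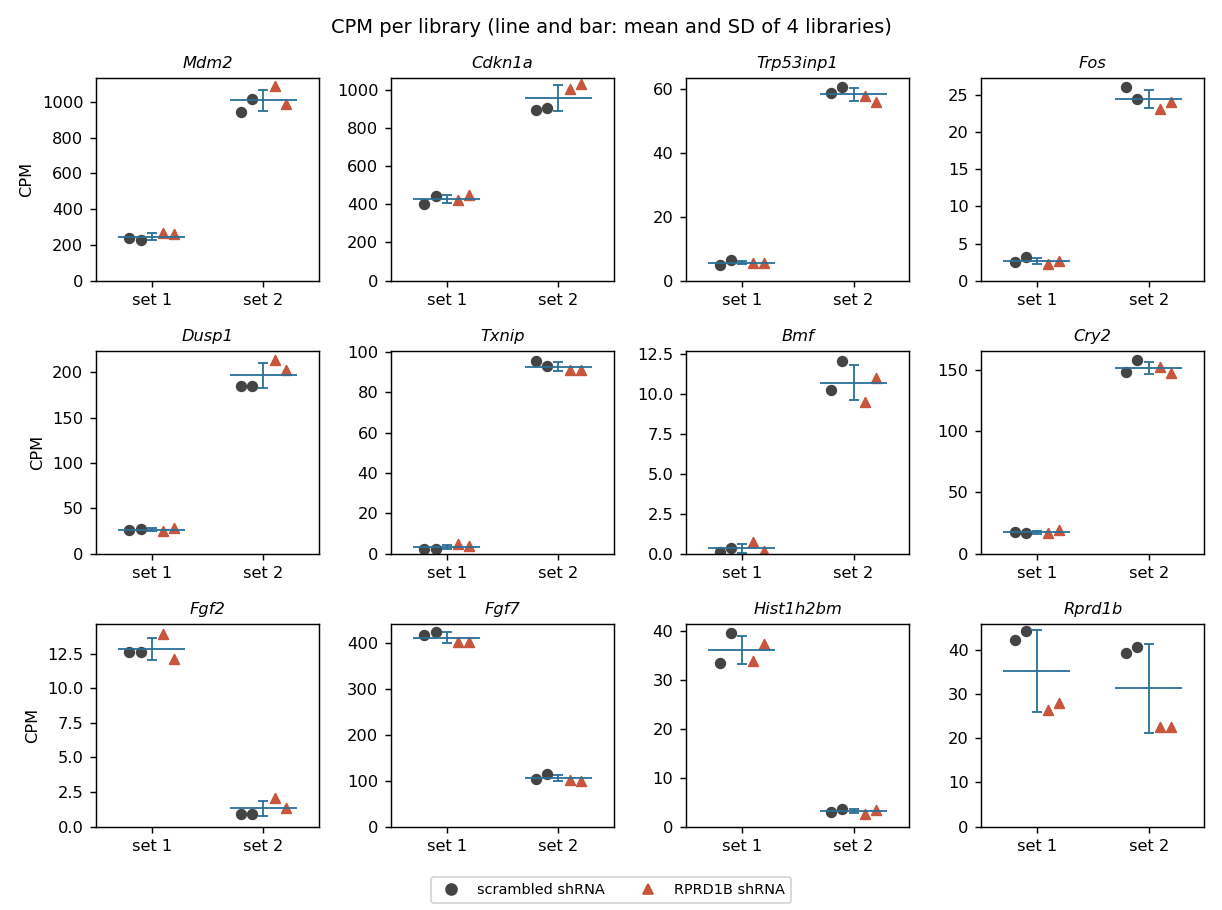
CPM of 12 genes in each of 8 libraries, with the mean and SD of the 4 libraries of a set; circles are scrambled and triangles RPRD1B shRNA. In 11 genes the sets do not overlap, and in Rprd1b the shRNA groups separate within each set.

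The largest rises included a trigger of cell death, a regulator of glucose uptake and a MYC antagonist. Bmf, a BH3-only protein of the BCL2 family that triggers apoptosis, was at 0.0732, 0.366, 0.702 and 0.132 CPM in set 1 and 10.2, 12.1, 9.50 and 10.98 CPM in set 2. The sets did not overlap and the log2 fold was 5.04 ± 0.25 (adjusted p = 6.78e-27), but 2 libraries of set 1 held under 3 counts, so that the size is uncertain. Txnip, an arrestin-like protein that binds thioredoxin and limits glucose uptake, was at 2.20, 2.49, 4.78 and 3.68 CPM in set 1 and 95.7, 92.98, 91.3 and 91.01 CPM in set 2. Its log2 fold was 4.81 ± 0.10 (adjusted p = 5.67e-36), 5.33 in scrambled and 4.43 in knockdown libraries, and the difference of those shifts was not called (adjusted p = 0.0707). Mxd1, which competes with MYC for MAX, was at 3.59, 5.19, 3.58 and 5.13 CPM in set 1 and 57.6, 51.8, 55.5 and 54.2 CPM in set 2, without overlap, for a log2 fold of 3.64 ± 0.09 (adjusted p = 1.25e-44).

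The other genes that the naming rule gave as largest rises were Rasgef1b, an exchange factor of Ras-like GTPases (4.65 ± 0.28, with 1 library of set 1 under 3 counts), the yippee-like gene Ypel2 (4.14 ± 0.21), Frat2, a GSK3-binding protein (3.66 ± 0.15), the death effector domain gene Dedd2 (3.55 ± 0.24), the vesicle GTPase Rab3a (3.45 ± 0.14), the transcription factor E2f2 (3.44 ± 0.16), the Arf regulator Asap3 (3.42 ± 0.19) and the kinesin Kifc2 (3.38 ± 0.22), all log2 folds. Trp53inp1 was the remaining one. In each of them all 4 libraries of set 2 were above all of set 1, which the rule itself required. In all, 2497 higher and 2435 lower genes met its criteria before size was ranked.

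Genes known to be driven by FOXO factors, a list made after these values had been seen, were mostly higher. In it 17 of 20 tested genes rose and 2 fell, 85% and 10% against 33.0% and 32.9% of all genes, 12 of them upward by 2-fold or more, with a median log2 fold of 1.18. Cyclin G2, a cell cycle inhibitor encoded by Ccng2, was at 2.05, 2.27, 2.32 and 2.17 CPM in set 1 and 19.8, 19.7, 19.3 and 19.05 CPM in set 2. No library of set 2 overlapped set 1 and the log2 fold was 3.14 ± 0.13 (adjusted p = 3.04e-32). Bcl2l11, encoding the BH3-only protein BIM, was at 24.2, 23.9, 25.2 and 22.8 CPM in set 1 and 172, 168, 177 and 179 CPM in set 2, and every library of set 2 lay above set 1, with a log2 fold of 2.86 ± 0.05 (adjusted p = 4.77e-54). The ubiquitin ligase Fbxo32 (2.61 ± 0.24), Sesn3 (1.42 ± 0.08), Cdkn1b, which encodes the cyclin-dependent kinase inhibitor p27 (1.30 ± 0.08), and Foxo1 itself (1.26 ± 0.08) rose, while Cited2, a transcriptional co-regulator, fell (-1.01 ± 0.04). Of 20 listed cell cycle inhibitors and quiescence genes, 10 of 17 tested genes rose and 4 fell, 58.8% and 23.5% against 33.0% and 32.9% of all genes. This count is not independent of the others: Cdkn1b, Foxo1, Foxo3, Ccng2 and Txnip are in the FOXO list too, and Cdkn1a is among the p53 targets. Cdkn2d, which encodes an inhibitor of cyclin D kinases, rose by 2.81 ± 0.08 and Gas1, a gene of growth-arrested fibroblasts, fell (-1.10 ± 0.05).

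In the MYC and MondoA network, a further list made after the values were seen, 8 of 13 tested genes rose and 3 fell. These are 61.5% and 23.1% against 33.0% and 32.9% of all genes, and the median was 0.58. The MYC antagonists Mxd1 and Mxi1 (1.56 ± 0.05) and Arrdc4, an arrestin-like gene of the same family as Txnip (1.53 ± 0.17), rose, and Myc, Mycn (-1.54 ± 0.23) and Mga (-0.84 ± 0.04) fell. Of 5 yippee-like genes 4 rose (80% against 33.0% of all genes) and none fell. The call of Ypel1 (0.71 ± 0.26) was lost without RPRD1B replicate 1 or 3. Of 12 tested BCL2 family genes 6 rose and 4 fell. These are 50% and 33.3% against 33.0% and 32.9% of all genes, so the share that fell was near that of all genes. The BH3-only genes Bmf, Bcl2l11 and Bbc3, which are in the FOXO list too, rose by 2-fold or more. The survival genes Bcl2l1 (-0.46) and Bcl2l2 (-0.52) and the effectors Bak1 (-0.42) and Bok (-0.51) were lower.

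Most circadian clock genes were higher in set 2. Cry2, a cryptochrome that represses the clock's own activators, was at 17.4, 16.4, 16.9 and 18.9 CPM in set 1 and 149, 158, 152 and 147 CPM in set 2. There was no overlap, and the log2 fold was 3.12 ± 0.06 (adjusted p = 7.06e-54). Of 21 listed clock genes, 13 of 20 tested genes rose and 4 fell, 65% and 20% against 33.0% and 32.9% of all genes. The median was 0.84 (0.66 to 0.87 under other scalings and the offset). The repressors Bhlhe41 (2.59 ± 0.15), Per1 (1.25 ± 0.04) and Per2 (1.08 ± 0.08) and the output factors Dbp (1.91 ± 0.21), Hlf (2.17 ± 0.26) and Tef (1.02 ± 0.10) rose, as did the activator Arntl, which encodes BMAL1 (0.61 ± 0.06). Its partner Clock fell (-0.41 ± 0.04). The E-box CACGTG, which that pair binds, was in 5 of 17 clock gene windows (29.4%) and in 1121 of 9366 tested genes.

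**Figure D4:**
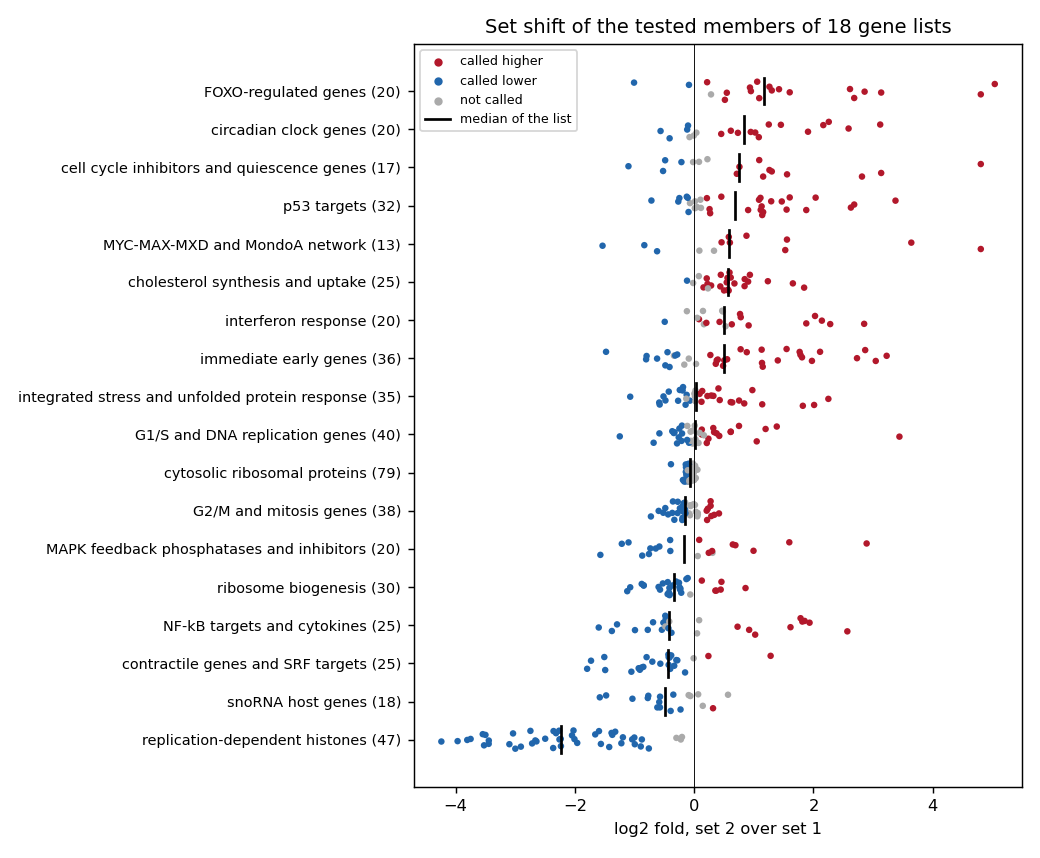
Log2 fold of set 2 over set 1 for each tested member of 18 gene lists (points; red called higher, blue called lower, grey not called) with the median of each list as a bar. The FOXO-regulated and the MYC-MAX-MXD and MondoA lists were made after the values were seen. The FOXO-regulated list has the highest median, 1.18, which its late choice can favour, and the replication-dependent histones the lowest, -2.24.

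Replication-dependent histone genes made up most of the largest falls. Of 64 listed genes 47 were tested, and 44 fell, 93.6% against 32.9% of all genes tested. A fall of 2-fold or more was called for 40 of them, against 4.21% of all genes. The median log2 fold was -2.24 (-2.26 to -1.97 under other scalings and the offset). None rose. Their summed level was 1079 to 1272 CPM in set 1 and 302 to 416 CPM in set 2. In 41 of the 47 every library of set 2 was below set 1, as in 27.9% of all genes. Of the 12 largest falls given by the naming rule, 8 were H2B and 2 were H2A genes, and the other two were Fgf2 and Zfp518a. These genes are near-identical copies, so reads can be divided among them in ways the counting does not show, and single values are uncertain.

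Hist1h2bm, an H2B gene, was at 33.5, 39.5, 33.8 and 37.4 CPM in set 1 and 3.00, 3.61, 2.66 and 3.36 CPM in set 2. The sets did not overlap and the log2 fold was -3.50 ± 0.11 (adjusted p = 5.22e-40), -3.48 in scrambled and -3.52 in knockdown libraries. Hist1h2be was at 31.3, 40.7, 34.7 and 35 CPM in set 1 and 3.18, 2.38, 2.74 and 3.49 CPM in set 2, also without overlap, for a log2 fold of -3.55 ± 0.11. Hist1h2bp (-3.81 ± 0.21), Hist1h2bb (-3.75 ± 0.16), Hist1h2bk (-3.52 ± 0.22), Hist1h2bn (-3.45 ± 0.16), Hist1h2bg (-3.44 ± 0.22) and Hist1h2bl (-3.10 ± 0.08) were the other H2B genes of that group, and Hist1h2ac (-3.04 ± 0.17) was an H2A gene. Hist1h2ak, the other, was at 23.02 to 27.6 CPM in set 1 and 2.07 to 4.35 CPM in set 2.

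The median fall ran from H2B, the lowest, to H4. The median log2 fold was -3.44 for the 14 tested H2B genes, -2.64 for 9 H2A, -2.04 for 10 H3, -1.60 for 5 linker H1 and -1.20 for 9 H4 genes. The difference between classes was not tested. Summed over the class, H2B stood at 236 to 284 CPM in set 1 and 28.1 to 33.4 CPM in set 2. H4 stood at 199 to 268 CPM in set 1 and 90.5 to 114 CPM in set 2, so the sets were apart in both classes. The 3 genes that were not called were Hist2h2be (-0.20 ± 0.22), Hist3h2a (-0.22 ± 0.17) and Hist2h3c1 (-0.30 ± 0.21).

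**Figure D5:**
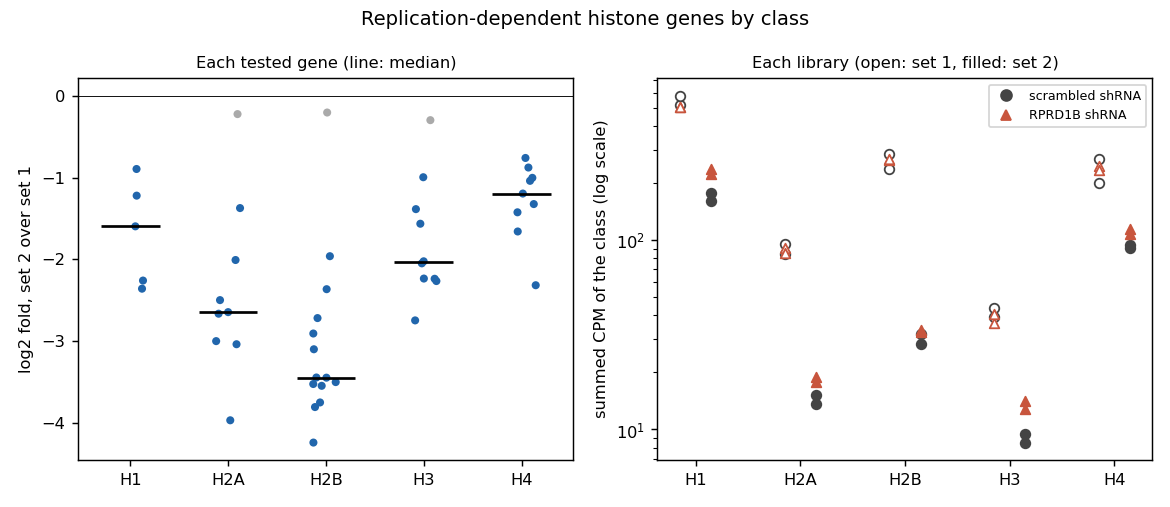
Left, log2 fold of set 2 over set 1 for each of 47 tested replication-dependent histone genes by class, blue where called lower and grey where not, with the class median as a line; right, summed CPM of each class in each library on a log scale, open for set 1 and filled for set 2. The H2B median is -3.44 and the H4 median -1.20, and in each class the libraries of set 2 lie below those of set 1.

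The stem-loop letters are shown for genes of different classes, since the stem-loop is the feature that separates these messengers from polyadenylated histone messengers. It was found in GENCODE M21 transcripts for 31 of the 47 tested genes, 16 bases long and in 6 versions, and in 3 of 11561 other tested genes (0.0259%). In the transcript models shown here 30 to 454 further bases follow it, so the models run past the loop. Capitals mark the stem.
Hist1h2bm: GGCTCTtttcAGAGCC
Hist1h2bk: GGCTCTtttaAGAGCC
Hist1h4c: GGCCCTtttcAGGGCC
Hist1h4i: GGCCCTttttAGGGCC
Hist1h4j: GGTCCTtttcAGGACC
Of the 31 genes with these letters 29 fell, and of the 16 without them 15 fell (no match says only that these letters are not in the transcript model). H2afx, Syncrip and Trim17 were the other genes with a match, named after their values were seen, and H2afx, a histone variant gene with both kinds of messenger, fell (-0.74 ± 0.10).

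A list of replication-independent histone genes and variants, made after the values were seen, held calls in both directions. Of 11 tested, 3 rose and 5 fell (3 and 6 with the offset), with a median of -0.09. Without the offset these are 27.3% and 45.5% against 33.0% and 32.9% of all genes. The list includes H2afx and Hist3h2a, which hold the stem-loop letters, and Hist3h2a is in the replication-dependent list as well. H3f3b fell (-0.41 ± 0.03), while H3f3a (0.23 ± 0.04), H1f0 (0.43 ± 0.03) and H2afv (0.42 ± 0.08) rose. Of 14 factors of histone gene expression, 6 rose and 4 fell, 42.9% and 28.6% (5 and 6 genes with the offset). Hinfp, which activates H4 genes, rose by 1.91 ± 0.11, Npat, the co-activator of histone genes, by 0.58 ± 0.05, and Slbp, which binds the stem-loop, by 0.33 ± 0.05.

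The promoter windows of a pair of H2B genes are shown because H2B promoters are known for an octamer and CCAAT boxes. Capitals mark ATTTGCAT, the octamer bound by OCT1, CCAAT on either strand and, in Hist1h2bg, TATAAA. The windows are from RefSeq GRCm38.p6, Hist1h2bm at chr13:21721794-21722093, plus strand, and Hist1h2bg at chr13:23571150-23571449, plus strand.
Hist1h2bm: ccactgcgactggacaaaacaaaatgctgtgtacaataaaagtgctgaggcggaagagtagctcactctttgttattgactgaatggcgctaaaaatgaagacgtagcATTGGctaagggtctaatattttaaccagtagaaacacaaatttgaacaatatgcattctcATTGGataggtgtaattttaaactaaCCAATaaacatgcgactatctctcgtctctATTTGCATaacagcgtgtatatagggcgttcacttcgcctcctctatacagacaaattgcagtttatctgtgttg
Hist1h2bg: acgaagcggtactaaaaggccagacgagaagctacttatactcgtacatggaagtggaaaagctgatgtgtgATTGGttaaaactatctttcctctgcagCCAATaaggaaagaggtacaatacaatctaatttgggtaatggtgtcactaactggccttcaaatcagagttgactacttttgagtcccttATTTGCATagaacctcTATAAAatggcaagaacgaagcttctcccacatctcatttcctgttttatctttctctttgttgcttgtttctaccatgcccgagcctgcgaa
The octamer, searched after the falls were seen, was in 10 of 42 histone gene windows (23.8%), in 6 of 12 H2B windows and in 1.59% of tested genes. CCAAT was in 37 of the 42 (88.1%) and in 4121 of 9366 tested genes. The 10 genes with an octamer had a median log2 fold of -3.47 and the 32 without one -2.03, and 6 of those 10 are H2B genes; this is a description with no test.

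Outside the histones the largest fall was that of Fgf2, a fibroblast growth factor (chr3:37348477-37410106 in GRCm38.p6), by the same rule on size and overlap. Fgf2 was at 12.7, 12.7, 13.98 and 12.1 CPM in set 1 and 0.882, 0.922, 2.09 and 1.35 CPM in set 2, without overlap, for a log2 fold of -3.32 ± 0.17 (adjusted p = 3.03e-27). Nudt6, which lies antisense to Fgf2 (chr3:37404982-37420242), fell too (-2.98 ± 0.11). The kit is not described as stranded, so reads from the stretch where these genes overlap cannot be told apart. Fgf7, the keratinocyte growth factor that fibroblasts secrete, was at 417, 423, 400.2 and 400.3 CPM in set 1 and 104, 114, 102 and 99.1 CPM in set 2. No library overlapped, and the log2 fold was -1.97 ± 0.04 (adjusted p = 3e-53). Fgf10 was the only other tested gene of 10 listed fibroblast growth factors (-0.19 ± 0.08; adjusted p = 0.0332), and its call was lost under 11 alternatives, among them DESeq2, library totals, the offset and leaving out scrambled replicate 2 or 3 or RPRD1B replicate 1, 2 or 4.

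The zinc finger gene Zfp518a fell by a log2 fold of -3.23 ± 0.13. Since histone genes had filled the rule, the next falls outside them were ranked after the values were seen. They were the heterochromatin repressor Bend3 (-2.68 ± 0.07), the host transcript of a microRNA cluster Mir17hg (-2.47 ± 0.10), the forkhead gene Foxs1 (-2.45 ± 0.12), Epc2 of the NuA4 acetyltransferase complex (-2.30 ± 0.07), the histone H4 methyltransferase gene Suv420h1 (-2.29 ± 0.06), Gmeb2 (-2.21 ± 0.12), Ncrna00085 (-2.12 ± 0.11), the RNase P and MRP subunit Pop7 (-2.09 ± 0.16) and Kctd15 (-2.06 ± 0.09). Bend3 was at 85.2, 90.3, 82.3 and 81.5 CPM in set 1 and 14.2, 15.1, 10.8 and 12.8 CPM in set 2, and set 2 lay wholly below set 1.

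Genes of the actin cytoskeleton mostly fell. Of 27 listed contractile genes and targets of serum response factor, 2 of 25 tested genes rose and 22 fell, 8% and 88% against 33.0% and 32.9% of all genes, with a median of -0.43 (-0.60 to -0.41 under other scalings and the offset), and in 22 of them every library of set 2 was below set 1, as in 27.9% of all genes. Zyxin, a focal adhesion protein encoded by Zyx, was at 852, 878, 795 and 852 CPM in set 1 and 453, 452, 434 and 457 CPM in set 2. Its log2 fold was -0.91 ± 0.03 (adjusted p = 2.59e-37). Smooth muscle actin Acta2 (-0.88 ± 0.03), transgelin Tagln (-1.49 ± 0.07), Fhl2 (-1.05 ± 0.04) and the fibronectin receptor subunit Itga5 (-0.85 ± 0.03) fell, and calponin Cnn1 rose (1.28 ± 0.33). Of 17 tested YAP and TEAD targets 5 rose and 8 fell, 29.4% and 47.1% (4 and 11 genes with the offset). The median turned from -0.01 to 0.02 and -0.23 under other scalings and the offset. The connective tissue growth factor Ctgf (-0.87 ± 0.03) and Ankrd1 (-1.27 ± 0.06) fell. Of 19 tested TGF-beta targets 6 rose and 10 fell, 31.6% and 52.6% (2 and 11 genes with the offset). The feedback inhibitors Pmepa1 (-1.63 ± 0.04) and Tgif1 (-1.18 ± 0.05) were among those that fell.

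Genes of ribosome making were mostly lower in set 2. Of 30 ribosome biogenesis genes 6 rose and 23 fell, 20% and 76.7% against 33.0% and 32.9% of all genes. The median was -0.33 (-0.37 to -0.31). Nop56, a core protein of box C/D small nucleolar particles, was at 580.3, 545, 537 and 563 CPM in set 1 and 305, 305, 315 and 286 CPM in set 2, with no overlap and a log2 fold of -0.88 ± 0.03 (adjusted p = 4.88e-35). The RNA polymerase I subunit Polr1b (-1.12 ± 0.08), nucleostemin Gnl3 (-1.07 ± 0.04) and the polymerase I factor Ubtf (-0.85 ± 0.04) fell, and Rrp9 rose (0.86 ± 0.08). Of 18 tested host genes of small nucleolar RNAs 1 rose and 12 fell, 5.56% and 66.7% (3 and 12 genes with the offset). Dancr was at -1.58 ± 0.14, Snhg3 at -1.48 ± 0.10 and Gas5 at -0.57 ± 0.03. Of 79 cytosolic ribosomal protein genes 36 fell (45.6%) and none rose, with a median of -0.07. With the GC and length offset 14 rose and 26 fell, with a median of -0.02, and with library totals 14 fell. Without RPRD1B replicate 3 the number that fell was 22, and without scrambled replicate 4 it was 23. Of 9 tested structural and small non-coding RNAs 2 rose and 1 fell, and 6 and 0 with the offset, where the median was 0.69 against 0.13. Without RPRD1B replicate 2 or 4 none rose, and without scrambled replicate 1 or 4 or RPRD1B replicate 1 only 1 did. Their sum, most of it the ribosomal precursor Rn45s, was 49572 to 76421 CPM in set 1 and 54684 to 101030 CPM in set 2; the sets overlapped, and its part in other results was not tested. Of 14 tested nuclear long non-coding RNAs 2 rose and 6 fell; Neat1 rose (0.79 ± 0.15) and Malat1 was not called (0.30 ± 0.11).

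The cell cycle genes were divided, with shares near those of all genes in the first list. Of 40 G1/S and replication genes 15 rose and 14 fell (13 and 16 with the offset), with a median of 0.02 that ran from -0.04 to 0.04 and so crossed 0 under other scalings and the offset. The initiation factors Cdc6 (1.39 ± 0.07) and Orc1 (1.05 ± 0.05) and Ccnd3, a D-type cyclin (1.20 ± 0.05), rose, while the replication clamp Pcna (-0.09 ± 0.04), the ribonucleotide reductase subunit Rrm2 (-0.58 ± 0.04) and Cdc25a (-0.68 ± 0.07) fell. The helicase subunit Mcm2 (-0.03 ± 0.04) and E2f1 (0.07 ± 0.07) were not called. E2f2 was at 1.46, 0.804, 2.53 and 1.38 CPM in set 1 and 14.8, 17.8, 16.6 and 18.1 CPM in set 2, and the sets did not overlap. Of 38 G2/M genes 8 rose and 19 fell, 21.1% and 50% against 33.0% and 32.9% of all genes, and none moved by 2-fold. Cdk1 was at -0.73 ± 0.04, Ccnb1 at -0.52 ± 0.05 and Mki67 at -0.17 ± 0.03.

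Stress responses other than p53 were mixed, the heat shock genes in both directions. Of 35 genes of the integrated stress and unfolded protein responses 17 rose and 13 fell, 48.6% and 37.1% against 33.0% and 32.9% of all genes, and the median was 0.02. The mTOR inhibitor Ddit4 was at 12.96, 16.1, 15.1 and 15.5 CPM in set 1 and 71.3, 59.2, 78.5 and 74.6 CPM in set 2, without overlap and with a log2 fold of 2.25 ± 0.07 (adjusted p = 8.32e-39). Chac1, a glutathione-degrading enzyme (2.01 ± 0.07), Ddit3, which encodes CHOP (1.82 ± 0.07), and the chaperone Hspa5 (0.64 ± 0.03) rose, and Atf4 (-0.19 ± 0.03), Asns (-0.14 ± 0.03) and Xbp1 (-1.07 ± 0.05) fell. Of 21 tested heat shock genes 9 rose and 10 fell, 42.9% and 47.6%, with Dnajb4 at 1.01 ± 0.04 and Hsp90ab1 at -0.20 ± 0.03. Of 25 NRF2 targets 13 rose and 5 fell, 52% and 20%, with Osgin1 at 1.94 ± 0.17 and Nqo1, not called, at -0.04 ± 0.05.

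Cholesterol genes rose almost throughout. Of 28 listed genes of cholesterol synthesis and uptake, 21 of 25 tested genes rose and 1 fell, 84% and 4% against 33.0% and 32.9% of all genes (21 and 3 with the offset), with a median of 0.56 (0.51 to 0.58). Hsd17b7, an enzyme of the sterol pathway, was at 181, 178, 202 and 197 CPM in set 1 and 451, 462, 431 and 440.5 CPM in set 2. Set 2 lay above set 1 in every library, with a log2 fold of 1.24 ± 0.04 (adjusted p = 2.13e-39). The ubiquitin ligase gene Mylip (1.84 ± 0.09), the sterol reductase gene Dhcr7 (1.65 ± 0.08) and Insig1, a sterol-sensing regulator (0.85 ± 0.04), rose, and Srebf2, which encodes a transcription factor of sterol genes, fell (-0.12 ± 0.04). The list holds regulators beside enzymes, so its count is not a measure of synthesis or uptake. Of 26 tested fatty acid genes 17 rose and 5 fell, 65.4% and 19.2%, with Pdk4 at 1.06 ± 0.05 and Scd2 at 0.65 ± 0.03. Of 32 tested glycolysis and hypoxia genes 14 rose and 8 fell (13 and 13 with the offset, where the median turned from 0.06 to -0.04), with Ero1l at 1.37 ± 0.03, Bnip3 at 1.14 ± 0.04 and Vegfa at -1.23 ± 0.04. Of 53 nuclear-encoded oxidative phosphorylation genes 9 rose and 9 fell (21 and 13 with the offset). Without the offset these are 17.0% each, under the shares of 33.0% and 32.9% of all genes. Cox7c was at -0.19 ± 0.04 and turned to 0.17 with the GC and length offset.

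Interferon and NF-kB genes differed within their lists. Of 36 listed interferon response genes, 12 of 20 tested genes rose and 1 fell, 60% and 5% against 33.0% and 32.9% of all genes. The median was 0.50 (0.48 to 0.54). Irf1 was at 2.86, 2.49, 5.41 and 3.82 CPM in set 1 and 23.8, 27.3, 29.1 and 25.5 CPM in set 2, with no overlap and a log2 fold of 2.85 ± 0.12 (adjusted p = 6.05e-29). Stat2 (2.28 ± 0.08) and Irf9 (2.14 ± 0.15), which join in the factor ISGF3, rose, while the induced genes Isg15 (0.47 ± 0.23) and Rtp4 (0.15 ± 0.42) were not called and Ifit2 fell (-0.49 ± 0.08). Of 25 tested NF-kB targets and cytokines 9 rose and 12 fell, 36% and 48%. The inhibitors Nfkbie (2.57 ± 0.13), Nfkbia (1.81 ± 0.11) and Nfkbiz (1.62 ± 0.07) and the chemokines Ccl7 (1.93 ± 0.09), Cxcl1 (1.85 ± 0.13) and Ccl2 (1.78 ± 0.05) rose, and the cytokines Il6 (-1.29 ± 0.27) and Il11 (-1.38 ± 0.08), the apoptosis inhibitor Birc3 (-1.60 ± 0.18) and the interleukin-33 receptor gene Il1rl1 (-0.99 ± 0.03) fell. Il1rl1 was at 3064, 3169, 3152 and 3177 CPM in set 1 and 1578, 1613, 1553 and 1570.1 CPM in set 2, set 2 wholly below set 1.

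Matrix genes and the transcription machinery held calls in both directions. Of 38 tested collagens and matrix proteins 10 rose and 9 fell (6 and 20 with the offset), under the shares of 33.0% and 32.9% of all genes in the fit without the offset, with thrombospondins Thbs1 at -1.28 ± 0.04 and Thbs2 at 0.61 ± 0.03. Of 22 tested matrix proteases and inhibitors 11 rose and 5 fell (7 and 8 with the offset, where the median turned from 0.09 to -0.04), with the plasminogen activator Plat at 1.97 ± 0.05 and the inhibitor Timp1 lower, at 223 to 241 CPM in set 1 and 107 to 124 CPM in set 2. Of 42 RNA polymerase II and elongation genes 18 rose and 16 fell, 42.9% and 38.1%. Of the PAF complex, Paf1 (1.72 ± 0.05), Ctr9 (1.11 ± 0.04) and Rtf1 (0.86 ± 0.04) rose, while Cdc73 fell (-0.43 ± 0.05). Of 14 RPRD relatives and CTD phosphatases 5 rose and 5 fell (3 and 7 with the offset; without RPRD1B replicate 4, 3 rose), with Rprd2 at -0.95 ± 0.05 and Rprd1a at 0.25 ± 0.09. Chromosome Y genes were lower in 3 of 4 tested cases, Ddx3y at -0.71 ± 0.05. The call of Eif2s3y was lost under 12 alternatives, among them DESeq2, library totals and the offset. Without the shRNA group term the calls of Ddx3y and Kdm5d were lost too, and that of Kdm5d also with glmTreat. The sum of the chromosome Y genes was 99.7 to 163 CPM in set 1 and 67.7 to 114 CPM in set 2. The sums of the sets overlapped, but within each shRNA group both libraries of set 2 were below both of set 1.

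Few genes were called for a different shift in the 2 shRNA groups. The interaction of set and group called 29 of 11723 genes (0.247%), 20 with a higher and 9 with a lower shift in the knockdown libraries. Linker histone Hist1h1e was at 319.5, 357, 302 and 317 CPM in set 1 and 124, 108, 154 and 171 CPM in set 2, and the knockdown shift minus the scrambled shift was 0.62 ± 0.08 on the log2 scale (adjusted p = 0.00027). It fell in both groups, less so with the knockdown, and Hist1h1c did the same (difference 0.67 ± 0.13; adjusted p = 0.00355). Rmrp, the RNA of RNase MRP, was at 32.7, 28.96, 17.6 and 18.02 CPM in set 1 and 18.9, 21.1, 21.3 and 23.3 CPM in set 2; it was lower in set 2 in scrambled and higher in knockdown libraries (difference 0.96 ± 0.16; adjusted p = 0.00027). The matrix signalling gene Cyr61 differed by 0.29 ± 0.05 (adjusted p = 0.00355).

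Among the 9 genes with a lower shift in the knockdown libraries, Ahr, the aryl hydrocarbon receptor gene, was at 33.2, 33.3, 53.2 and 48.9 CPM in set 1 and 94.4, 91.6, 103 and 102 CPM in set 2, and the difference was -0.48 ± 0.10 (adjusted p = 0.00924). Ahr rose in both groups, by 1.48 with the scrambled and 1.00 with the RPRD1B shRNA. Decorin, encoded by Dcn, was at 43.7, 47.5, 142 and 158 CPM in set 1 and 58.9, 51.9, 132 and 138 CPM in set 2, where the knockdown libraries lie above the scrambled ones in both sets (difference -0.44 ± 0.09; adjusted p = 0.0145). The splicing helicase gene Dhx38 differed by -0.57 ± 0.13 (adjusted p = 0.0237). Tmem121 was at 0.439, 0.585, 2.25 and 2.37 CPM in set 1 and 1.00, 3.30, 0.644 and 0.610 CPM in set 2, and its difference of -3.86 ± 0.69 (adjusted p = 0.00121) went to an adjusted p of 0.112 without scrambled replicate 4. Of the 8 genes named, the call of Hist1h1e and Rmrp held under every alternative, that of Tmem121 was lost only without scrambled replicate 4, and those of Hist1h1c, Cyr61, Ahr, Dcn and Dhx38 were lost in 2 to 7 of them. Each of the 8 libraries ends at least 1 of these calls except scrambled replicate 2. The count of 29 was 53 without scrambled replicate 2, 7 without scrambled replicate 3, and 10, 10 and 12 without RPRD1B replicates 1, 3 and 4, and DESeq2 called 5, so it depends on single libraries and on the test.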

How the data were processed

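Counts of reads per gene in 8 libraries were deposited as whole numbers by the authors, and per the submitters' processing notes the genome build was mm10; aligner, counter and annotation are not stated in any source used. The authors' within-set comparisons were not used. Both tables were joined on 23420 shared entries, of which 27 had become dates, and 23234 of 23393 names matched RefSeq (GRCm38.p6). Depth was 12311442 to 23223139 counts per library, where 3 counts are 0.129 to 0.244 CPM of the library totals, without TMM factors. This limit reflects depth alone and no other source of error. All other CPM values are counts scaled to a common library size by TMM.

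Genes reaching a mean count of 10 were tested with edgeR 4.0.16 (R 4.3.3; robust quasi-likelihood F test, two-sided, Benjamini-Hochberg adjustment over all genes tested, called under 0.05). The model held set and shRNA group, and a model with 1 mean per set and group gave the shifts apart and their difference. The steps were tested on simulated counts in which only a small part of the genes was shifted. That test does not cover a difference in most genes, as seen here. Replicate numbers do not pair libraries between sets, since the sets hold different numbers. Alternatives were other scalings, other filters, DESeq2 1.42.0, limma 3.58.1 with a replicate block, glmTreat, an offset for GC content and length, and each library left out.

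Named were the 5 markers, Rprd1b, the 12 largest rises and falls (mean count at least 50, called alike in both groups, sets not overlapping, numbered gene models left out), up to 4 called genes per list by smallest p, and 4 differences per direction. Members and lists were chosen with earlier results of these data known, and list members beyond that rule, 7 added lists (FOXO, MYC-MAX, YPEL, BCL2 family, fibroblast growth factors, histone factors, replication-independent histones), the octamer and the falls outside histones were chosen after their values were seen. Lists share genes, so their counts are not independent. Bbc3 and Sesn1 are in the p53 and the FOXO lists, and Btg2 is in the p53 and the immediate early lists. Mitochondrially encoded genes are not among the genes analysed here. Promoter sequences are from RefSeq GRCm38.p6 and stem-loops from GENCODE M21 transcripts.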

Additional observations from a re-analysis of the deposited data

Results flagged for a closer look

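In 15 of 366 groups of 4 libraries (each named gene in each set), 1 library lay far from the other 3 by Dixon's test at the 95% level, where chance alone gives about 1 in 20 groups. In set 1 the libraries that stood apart from the other 3 were H3f3a at 88.1 CPM in scrambled replicate 1 (99.5 to 102 CPM in the other 3), Rps3a1 at 1228 CPM in scrambled replicate 1 (1144 to 1153 CPM in the other 3), Snhg8 at 56.7 CPM in scrambled replicate 1 (52.7 to 53.2 CPM in the other 3) and Bnip3 at 81.7 CPM in scrambled replicate 1 (70.2 to 71.6 CPM in the other 3), all in the same scrambled library. Further values of that kind in set 1 were Bak1 at 90.1 CPM in RPRD1B replicate 2 (83.6 to 84.4 CPM in the other 3), Gmeb2 at 21.6 CPM in RPRD1B replicate 2 (23.5 to 23.7 CPM in the other 3), Tnc at 779 CPM in RPRD1B replicate 2 (786 to 787 CPM in the other 3) and Rpl5 at 874 CPM in RPRD1B replicate 2 (910.0 to 915 CPM in the other 3), all in the same knockdown library. The rest of set 1 were Mxi1 at 37.8 CPM in RPRD1B replicate 1 (32.2 to 32.9 CPM in the other 3), Rprd2 at 92.2 CPM in scrambled replicate 2 (85.6 to 86.5 CPM in the other 3) and Timp1 at 223 CPM in RPRD1B replicate 1 (239.7 to 241 CPM in the other 3). In set 2 they were Tmem121 at 3.30 CPM in scrambled replicate 4 (0.610 to 1.00 CPM in the other 3) and Hist1h2bl at 6.53 CPM in scrambled replicate 4 (9.18 to 9.24 CPM in the other 3), both in the same scrambled library, and Ero1l at 357 CPM in RPRD1B replicate 3 (348 to 349 CPM in the other 3) and Pop7 at 2.98 CPM in RPRD1B replicate 3 (2.09 to 2.23 CPM in the other 3), both in the same knockdown library. The shRNA group was not part of that test, and its part in these values was not tested.

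The set shift differed between the shRNA groups, by the interaction of set and group in edgeR, for 8 named genes. On the log2 scale the knockdown shift minus the scrambled shift was 0.62 for Hist1h1e, 0.67 for Hist1h1c, 0.96 for Rmrp and 0.29 for Cyr61. It was -3.86 for Tmem121, -0.48 for Ahr, -0.44 for Dcn and -0.57 for Dhx38.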

How the results depend on the processing

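Against a fold of 1.5 (glmTreat), 1181 genes were higher and 785 lower; over the other alternatives both counts stayed within 1.5 times of those given. Higher genes ran from 1181 to 4056 and lower genes from 785 to 4341 over 18 alternatives, 4341 with the offset for GC content and length, under which 3522 were higher. Genes at least 2-fold higher ran from 634 to 1038 and 2-fold lower from 344 to 582. The number of genes with different shifts in the shRNA groups was 5 with the DESeq2 test, 82 with library totals, 50 with no filter on low counts, and 7 to 53 with 1 library left out. The direction of Cox7c turned, to 0.17 on the log2 scale with the GC and length offset; no other of the 175 shifts that the naming rule gave changed sign. Other scalings moved the median of all genes to between -0.03 and 0.02.

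With the replicate block as a random effect in limma-voom (consensus correlation -0.13), 4008 genes were higher and 4016 lower; as a fixed block, 39 genes had different shifts. The deviations of same-numbered libraries from the mean of their set and group correlated at 0.02 (replicates 1 and 2) and -0.05 (replicates 3 and 4). With 2 libraries per set and group, both replicates of a set give the same value by construction. The numbers are therefore not taken to pair libraries within a set. Low counts limit Bmf, Rasgef1b and Tmem121.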

Other observations

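By biotype, the 21 tested small nucleolar RNA genes had a median log2 fold of -0.95, with 9 lower and 0 higher by 2-fold or more. The 383 long non-coding RNA genes had a median of -0.14, with 20 higher and 44 lower by 2-fold or more, and the 11181 protein-coding genes a median of -0.00307. Of 459 tested genes on chromosome 13, which holds a histone cluster, 20 were higher and 53 lower by 2-fold or more. The 53 include histone genes of that cluster, such as Hist1h2bm, and so do not describe the rest of the chromosome. Over all tested genes the shares at 2-fold or more were 7.16% higher and 4.21% lower. Median log2 fold rose with the GC content of the gene, from -0.12 in the lowest of 10 equal bins to 0.10 in the highest, and the number of genes at least 2-fold higher from 33 to 149. Genes at least 2-fold lower numbered 46 in the lowest bin and 69 in the highest, with 1161 genes in each of these bins. Of 1161 genes in the bin of the shortest genes, 47 were higher and 82 lower by 2-fold or more.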
